A study of Mus musculus with 22 samples.

Results

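A group of 10 genes known from plasmacytoid dendritic cells was followed across sorted mouse bone marrow: Siglech, Bst2, Ccr9, Cd7, Lag3, Tcf4, Spib, Runx2, Cox6a2 and Pacsin1. Members were found as all probe sets whose annotation holds the symbol of such a gene, alone or among several names. This gave 20 probe sets for 9 of the 10 genes, out of 45037 probe sets on both chips. No probe set was named for Runx2, so its RNA was not analysed here. All 20 probe sets passed the filter on low signals, which kept 40405 probe sets of the series, and 0 of them named a further gene. The genes were chosen with earlier results of these arrays in view, in which cells carrying both sort markers had been set against the other cells. For that reason the differences of OGCsort +/+ cells from the -/- and +/- cells are given for each of these genes as a description with no p-value. Counts past a threshold in those comparisons are printed beside the share of all genes, and nothing is read from them.

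RNA came from mouse bone marrow cells stained for 2 surface proteins. CD45 is a phosphatase of leukocytes, and Sca1 is found on blood stem cells and also on some lymphocytes and dendritic cells. The set named OGCsort held 3 samples each of cells with neither marker (-/-), of cells with CD45 alone (+/-) and of cells with both (+/+), and its labels put purity at 90%. CPGSE is a second set of 2 +/+ samples, with purity put at 95 to 98%, whose source label names haematopoietic stem cells. Each of these 11 RNA samples was hybridized to 1 MOE430A and 1 MOE430B chip, which gave 22 arrays. The order of the signs, CD45 first and Sca1 second, comes from the run records of the OGCsort arrays. The labels give no strain, age, sex, treatment or cell number per animal for these groups, and none of the gates names a dendritic cell marker. They do not say whether samples came from separate animals, so a p-value covers only the spread between these samples. The values are MAS5 signals, rescaled to the same trimmed mean of 500 on every array.

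Plasmacytoid dendritic cells are bone marrow derived cells that sense viral RNA and DNA in their endosomes and answer with large amounts of type I interferon. The transcription factor E2-2, made from Tcf4, is needed for their development and upkeep, and Spib and Runx2 act with it. In the mouse, the lectin receptor Siglec-H and the antigen BST2 are used to recognise them. Several of the genes are not restricted to these cells: Spib is also a B cell gene, Cd7 and Lag3 are also known from T and NK cells, and Bst2 is induced by interferon in many cells. In RNA of a whole sorted fraction, fewer cells of a type and less RNA per cell cannot be told apart.

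E2-2 binds the E-box, CANNTG, and its preferred core is often given as CAGGTG. The 250 bases before the start of transcription are shown for 4 of the genes, because the data include Tcf4 beside the genes it is known to act on. The sequences are from RefSeq, build GRCm38.p6, and each is read 5′ to 3′ on the strand of its gene, with every CANNTG in capitals. The table of promoters held 6 of the 10 genes, namely Siglech, Ccr9, Bst2, Spib, Runx2 and Pacsin1. The Siglech window is chr7:55767934-55768183 on the plus strand and overlaps the first bases of the annotated gene, which starts at 55768154. The Ccr9 window is chr9:123766961-123767210 on the plus strand and ends at the base before the gene. The Bst2 window is chr8:71537473-71537722 on the minus strand and ends at the base before the gene. The Pacsin1 window is chr17:27684989-27685238 on the plus strand and lies before an internal start, within the annotated gene.
Siglech: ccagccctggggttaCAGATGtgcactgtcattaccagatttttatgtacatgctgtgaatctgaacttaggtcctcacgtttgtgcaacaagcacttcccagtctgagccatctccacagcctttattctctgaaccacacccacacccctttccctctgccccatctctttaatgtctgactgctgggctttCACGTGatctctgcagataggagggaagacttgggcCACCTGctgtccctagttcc
Ccr9: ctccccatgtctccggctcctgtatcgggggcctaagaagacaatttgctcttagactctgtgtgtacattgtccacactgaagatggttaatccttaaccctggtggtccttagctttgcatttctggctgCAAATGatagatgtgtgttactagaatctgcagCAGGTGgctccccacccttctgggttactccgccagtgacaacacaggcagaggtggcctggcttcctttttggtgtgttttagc
Bst2: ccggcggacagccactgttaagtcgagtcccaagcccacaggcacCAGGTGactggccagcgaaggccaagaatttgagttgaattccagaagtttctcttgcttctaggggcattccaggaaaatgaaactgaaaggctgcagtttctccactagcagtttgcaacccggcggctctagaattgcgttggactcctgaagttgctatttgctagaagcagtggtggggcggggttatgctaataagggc
Pacsin1: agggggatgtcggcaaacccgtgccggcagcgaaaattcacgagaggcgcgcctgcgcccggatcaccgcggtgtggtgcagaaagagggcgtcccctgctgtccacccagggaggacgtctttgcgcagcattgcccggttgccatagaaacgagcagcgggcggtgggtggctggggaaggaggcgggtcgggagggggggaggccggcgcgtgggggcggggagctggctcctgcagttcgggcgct

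The Siglech window holds 3 E-boxes, which begin 235, 56 and 20 bases before the start at which the window ends. The nearest of them reads CACCTG, the reverse complement of CAGGTG, and lies within the annotated gene. The Ccr9 window holds 2 E-boxes, at 118 and 85 bases, of which the nearer reads CAGGTG. The Bst2 window holds 1, at 205 bases, and it reads CAGGTG. No CANNTG was found in the Pacsin1 window. The Spib window held 2 E-boxes of other letters, and the Runx2 window held 1. CAGGTG in either orientation was thus found in 3 of the 6 windows, and 17.2% of 32851 promoter windows of the same length hold it. CANNTG itself is in 66.2% of them, so 5 of 6 windows with any E-box is close to that share. GAGGAA, a core bound by factors of the family of Spib, was searched on both strands and is in 23.3% of all windows and in 0 of the 6. TGTGGT, a core bound by Runx factors, is in 14.0% of all windows and was found in those of Siglech, Runx2 and Pacsin1. These are letter matches and not measured binding sites.

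Siglech encodes the surface lectin Siglec-H and is measured by a single probe set, on chip B. Its signal was 752, 856 and 805 in OGCsort -/- samples 4, 5 and 8, and 778, 1378 and 779 in +/- samples 1, 7 and 9. In OGCsort +/+ samples 1, 5 and 6 it was 3031, 5173 and 8594, and in CPGSE +/+ samples 4 and 6 it was 8207 and 6220. All +/+ samples of both sets lay above all others, and the -/- and +/- samples overlapped. The mean was 5599 ± 2806 (SD, n = 3) in OGCsort +/+ against 804 ± 51.9 (n = 3) in -/- and 978 ± 347 (n = 3) in +/-. On the log2 scale OGCsort +/+ was 2.63 (SE 0.36) above -/- and 2.40 above +/-, which are folds of 6.18 and 5.30. Siglech was measured above 700 even in the samples with neither marker, and a signal from other matching RNA was not tested.

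**Figure D1:**
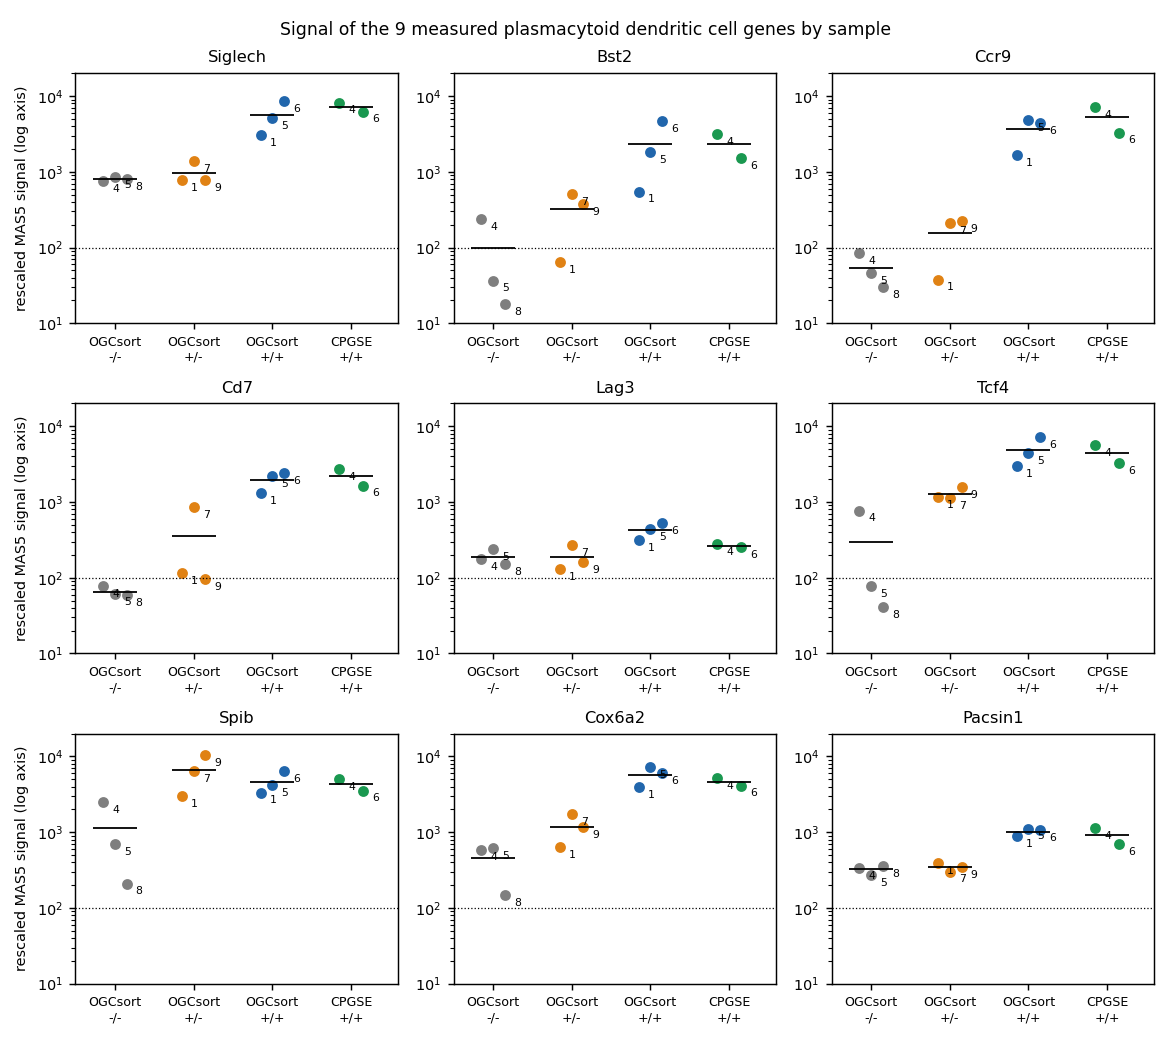
Rescaled MAS5 signal (log axis) of the representative probe set of each measured gene in every RNA sample, with the sample number beside each point, the group mean as a line and a signal of 100 as a dotted line. For Siglech the 5 +/+ samples lie between 3031 and 8594, above every other sample, while for Spib the +/- samples reach 10481.

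Ccr9 encodes the receptor of the chemokine CCL25, which guides cells to the gut and thymus. Its brightest probe set gave 83.6, 45.5 and 29.7 in the -/- samples and 37.7, 208 and 226 in the +/- samples. The same probe set gave 1641, 4851 and 4436 in OGCsort +/+ and 7195 and 3293 in CPGSE +/+. Ccr9 thus had the widest gap of the measured genes between OGCsort +/+ and the other OGCsort samples. Every -/- sample was under a signal of 100, so the fold against them is a bound, at least 25.1-fold, and against +/- it was 20.4-fold (log2 4.35, SE 0.53). This probe set carries the suffix _x, used by the maker for sets that may also match other sequences. A second probe set was also higher in every +/+ sample than in any other, at lower signals, with 350, 1454 and 1920 in OGCsort +/+, 1064 and 546 in CPGSE +/+ and at most 171 elsewhere. The other 3 Ccr9 probe sets stayed under 350 on every array and overlapped between OGCsort +/+ and -/-.

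Bst2 encodes the membrane protein tetherin, which holds budding virus particles on the cell. Its signal was 238, 36.6 and 17.8 in -/- and 64.3, 512 and 378 in +/-. It was 547, 1826 and 4701 in OGCsort +/+ and 3185 and 1530 in CPGSE +/+. The +/+ samples lay above all others, but OGCsort +/+ sample 1 exceeded +/- sample 7 by little. The difference from -/- was 4.14 on the log2 scale (SE 0.80, 17.7-fold) and that from +/- was 2.63 (6.19-fold). The 17.7-fold difference was 30.5-fold without +/+ sample 1, 10.7-fold without +/+ sample 6 and 29.4-fold without -/- sample 4. The 6.19-fold difference was 10.7-fold without +/+ sample 1, 3.73-fold without +/+ sample 6 and 3.64-fold without +/- sample 1.

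Cd7 encodes an immunoglobulin superfamily protein of T, NK and dendritic cells. Its signal was 78.2, 60.5 and 58.5 in the -/- samples and was 114, 864 and 97.2 in the +/- samples. In OGCsort +/+ it was 1313, 2194 and 2406, and in CPGSE +/+ it was 2744 and 1648. Sample 7 stands apart from the other +/- samples, and all +/+ samples lie above it. OGCsort +/+ was at least 14.7-fold above -/- and 7.57-fold above +/- (log2 2.92, SE 0.58), or 14.1-fold above +/- when +/- sample 7 was left out.

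Lag3 encodes an inhibitory receptor that binds MHC class II, and it had the smallest differences of the measured surface proteins. Its signal was 176, 240 and 152 in -/- and 131, 272 and 160 in +/-. It was 314, 437 and 523 in OGCsort +/+ and 280 and 251 in CPGSE +/+. The CPGSE samples overlapped the +/- samples, with CPGSE sample 6 below +/- sample 7 and CPGSE sample 4 above every Sca1 negative sample. All OGCsort +/+ samples lay above both Sca1 negative groups. OGCsort +/+ was 2.05-fold above -/- (log2 1.04, SE 0.38) and 2.11-fold above +/-.

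Tcf4 encodes the transcription factor E2-2 and is measured by 6 probe sets. The representative set gave 769, 77.4 and 41.2 in the -/- samples, 1169, 1140 and 1558 in +/-, 2966, 4447 and 7259 in OGCsort +/+ and 5668 and 3227 in CPGSE +/+. The 3 OGCsort groups did not overlap and were ordered -/-, +/-, +/+, with -/- sample 4 well above the other -/- samples. OGCsort +/+ was 4.63 above -/- on the log2 scale (SE 0.65, 24.8-fold) and 1.82 above +/- (3.52-fold). The 24.8-fold difference was 51.5-fold without -/- sample 4 and 15.6-fold without -/- sample 8. Another 4 Tcf4 sets had the same order of the OGCsort group means, and in 1 of these +/- sample 1 overlapped the -/- samples. The last Tcf4 set was dim, at 16.1 to 244 over all arrays, and its mean was highest in -/-.

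Spib encodes an ETS family transcription factor of dendritic and B cells, and its pattern differed from that of the other genes. Its signal was 2519, 699 and 210 in -/- and 2963, 6428 and 10481 in +/-. It was 3328, 4197 and 6455 in OGCsort +/+ and 4999 and 3550 in CPGSE +/+. The highest sample was +/- sample 9, and +/+ and +/- overlapped, with a log2 difference of -0.38 (SE 0.65). OGCsort +/+ lay 2.56 above -/- (5.89-fold), and this was 10.7-fold without -/- sample 4 and 3.31-fold without -/- sample 8. The B cell markers taken as a sum, like Spib, had their highest mean in +/-. Cd22, Ms4a1 and Pax5 singly had theirs in other groups. Cd22, for example, gave 11207, 8132 and 11543 in OGCsort +/+ against 3363, 10894 and 8844 in +/-. The summed signal of 11 measured B cell markers was 21451, 6834 and 2077 in -/-, 22303, 52007 and 53840 in +/-, 36749, 33113 and 36263 in OGCsort +/+ and 27466 and 25290 in CPGSE +/+. Of these markers 8 were over 100 on all -/- arrays, 10 on all OGCsort +/- and +/+ arrays and 9 on both CPGSE arrays. Within -/-, within +/- and within CPGSE +/+ the samples had the same order in Spib and in this sum. Within OGCsort +/+ the sample lowest in Spib was the highest in this sum. Their part in the Spib signal was not tested.

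Cox6a2 encodes the muscle and heart isoform of a cytochrome c oxidase subunit, which is also expressed in plasmacytoid dendritic cells of the mouse. Its chip A probe set gave 588, 624 and 146 in -/-, 632, 1739 and 1175 in +/-, 3929, 7281 and 5986 in OGCsort +/+ and 5184 and 4114 in CPGSE +/+. All +/+ samples were above all others. OGCsort +/+ was 13.4-fold above -/- (log2 3.75, SE 0.47), or 8.76-fold without -/- sample 8, and 4.97-fold above +/-. The second probe set, on chip B, gave 3157, 6133 and 4615 in OGCsort +/+, 5966 and 4943 in CPGSE +/+, at most 328 in -/-, and 246, 1857 and 174 in +/-. In both sets the +/- sample with the highest signal was sample 7.

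Pacsin1 encodes an adaptor of membrane bending and endocytosis best known from neurons. Its signal was 338, 269 and 359 in -/-, 387, 302 and 345 in +/-, 889, 1117 and 1054 in OGCsort +/+ and 1141 and 695 in CPGSE +/+. Both Sca1 negative groups overlapped and all +/+ samples lay above them. The means were 322 ± 46.9 in -/-, 345 ± 42.9 in +/- and 1020 ± 118 in OGCsort +/+ (SD, n = 3 each). OGCsort +/+ was 2.98-fold above -/- and 2.79-fold above +/-. The second Pacsin1 probe set was dimmer, with 122, 368 and 505 in OGCsort +/+, 434 and 269 in CPGSE +/+ and at most 109 elsewhere.

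Against the cells with neither marker, OGCsort +/+ samples did not overlap for 9 of 9 genes, all higher, where 18.4% of 16997 genes were higher without overlap. At an adjusted p under 0.05 the count was 8 of 9, all higher, where 19.8% of all genes passed in either direction (1875 higher and 1482 lower), and the gene that did not pass was Lag3. The median difference was 3.75 on the log2 scale, against -0.10 over all genes. The median is the same with Ccr9 and Cd7 at their bounds. This comparison was in view when the genes were chosen. Over all 20 probe sets 15 passed, where 9.69% of all probe sets did so in that direction. Within the chip A run that held OGCsort +/+ samples 1 and 5 with the 3 -/- samples, the differences ran from 0.88 for Lag3 to 5.12 for Ccr9, all positive for the 8 genes of that chip. On chip B all OGCsort +/+ and -/- samples shared a run. Siglech in +/+ sample 1 was 1.88 above the 3 -/- samples, which were on the same wash station of that run.

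Against the cells with CD45 alone, OGCsort +/+ did not overlap for 8 of 9 genes, Spib being the other, where 7.01% of all genes were higher without overlap. The count past an adjusted p of 0.05 was 2 of 9, Siglech and Ccr9, both higher, where 0.141% of all genes passed in either direction (16 higher and 8 lower). Over all 20 probe sets 3 passed, against 0.0742% of all probe sets. With each sample left out in turn the gene count was 0 to 3, with 0 without OGCsort +/+ sample 5 or 6, 1 without +/- sample 1 or 9 and 3 without +/- sample 7. The median difference was 2.31, against -0.03 over all genes, and these counts also come from a comparison in view at the choice. Within the chip A run that held OGCsort +/+ sample 6 and the 3 +/- samples the difference of Spib was 0.14, and the other 7 genes of that chip lay between 1.39 for Lag3 and 4.78 for Ccr9. With 2 samples of each group on 1 wash station of the same run on chip B, Siglech was 2.65 higher in +/+.

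**Figure D2:**
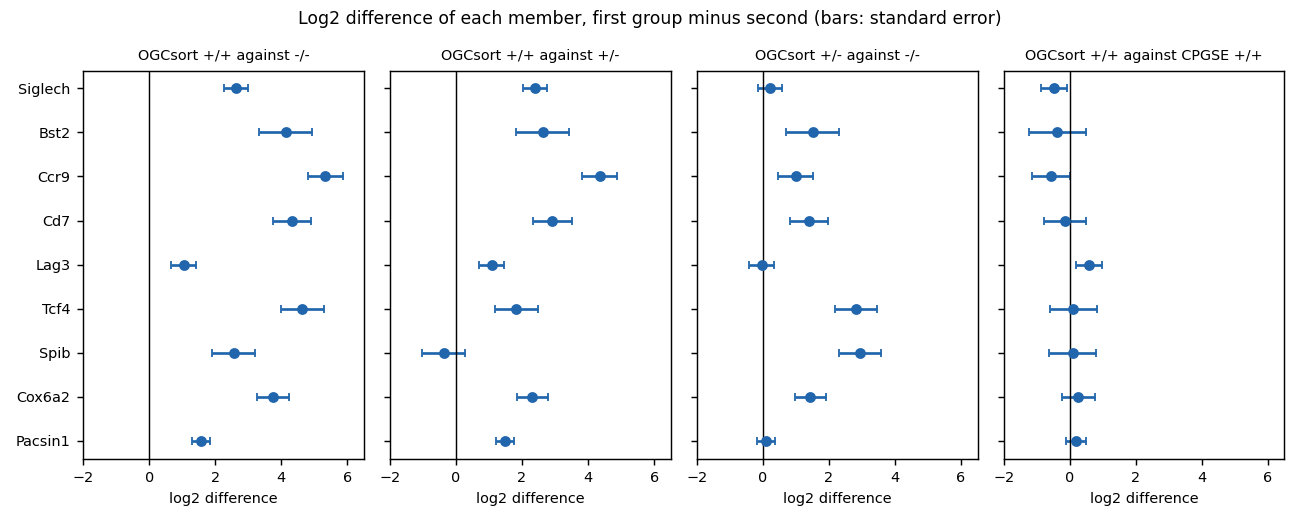
Log2 difference of each gene's representative probe set in the 4 comparisons, first group minus second, with the standard error of the limma fit as bars. Ccr9 stands farthest from 0 in both comparisons of OGCsort +/+ with the other OGCsort groups (fitted values 5.34, with every -/- array under 100, and 4.35), Spib lies at -0.38 between +/+ and +/-, and every gene is within 0.59 of 0 between the 2 sets of +/+ samples.

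Between the cells with CD45 alone and those with neither marker, the measured transcription factors differed and no surface gene passed. It is not stated whether the choice of genes used this comparison. Tcf4 was 7.04-fold higher in +/- (log2 2.82, SE 0.65, limma adjusted p = 0.00937) and Spib was 7.66-fold higher (log2 2.94, SE 0.65, adjusted p = 0.00705). Both were higher in every +/- sample than in any -/- sample. Cox6a2 did not pass at a log2 difference of 1.43 (SE 0.47, adjusted p = 0.0581), although all +/- samples lay above the -/- samples. The remaining genes had adjusted p-values from 0.14 for Cd7 to 0.964 for Lag3. Siglech differed by 0.22 (SE 0.36, adjusted p = 0.758) and Pacsin1 by 0.09 (SE 0.27, adjusted p = 0.879). The count of 2 of 9 genes higher compares with 16.8% of all genes called in either direction (1624 higher and 1233 lower), and 4 of 9 without overlap with 16.2%. Over all probe sets 6 of 20 were higher, against 7.91%. Without +/- sample 1, Ccr9 passed (adjusted p = 0.044) at 3.03-fold. No chip A run held both groups. With the wash run as a block, Tcf4 differed by 1.82 (adjusted p = 0.589) and Spib by 2.15 (adjusted p = 0.508), so neither passed. The Tcf4 call was also lost without -/- sample 5 (adjusted p = 0.0515), and its fold was 14.6 without -/- sample 4 and 4.42 without -/- sample 8. The fold of Spib was 14.0 and 4.31 under the same omissions. The neutrophil markers also moved between these groups: 10 of 12 were higher in +/- and their summed signal was 100220 to 404258 there against 2390 to 21129 in -/-. With the wash run as a block 1 of the 12 was higher. Their part was not tested.

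The 2 sets of +/+ samples were sorted and hybridized apart. No gene passed between OGCsort and CPGSE +/+, 0 of 9, where 0.0% of 40405 probe sets passed by limma and 2419 had an unadjusted p under 0.05. The log2 differences ran from -0.56 for Ccr9 (SE 0.58) to 0.59 for Lag3 (SE 0.39, adjusted p = 0.896), and Lag3 was the only gene without overlap, where 15.4% of all genes were higher in OGCsort without overlap. The standard errors were 0.30 to 0.87, and a p-value that misses the threshold does not show that the sets are alike. Set, purity and run cannot be told apart here. As a description, CPGSE +/+ lay above every -/- sample for 9 of 9 genes, against 22.8% of all genes, and above every +/- sample for 7 of 9, against 14.3%. The exceptions to the latter were Spib and Lag3. Tcf4 in CPGSE was 23.2-fold above -/-, Bst2 23.0-fold, Cox6a2 11.2-fold and Siglech 8.60-fold, and Ccr9 was at least 37.1-fold above.

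Within both sets of +/+ samples the genes shared an order. OGCsort +/+ sample 1 was the lowest of its group for 9 of 9 genes, where this holds for 34.0% of all genes. Sample 6 exceeded sample 1 by a ratio of 1.19 for Pacsin1 up to 8.60 for Bst2. CPGSE sample 4 lay above sample 6 for 9 of 9 genes, where this holds for 53.2% of all genes, with ratios from 1.12 for Lag3 to 2.19 for Ccr9. Among the +/- samples, sample 7 was highest for 5 of 9 genes, Siglech, Bst2, Cox6a2, Cd7 and Lag3, where this holds for 30.0% of all genes, and it was lowest for Tcf4 and Pacsin1. Among the -/- samples, sample 4 was highest for 5 of 9, which include Tcf4, Spib and Bst2, where this holds for 35.2% of all genes, and it was lowest for Siglech. The members share arrays and scaling, so these counts are not independent of each other.

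Markers of other cells differed between the same samples. The summed signal of 12 neutrophil markers was 32810 in OGCsort +/+ sample 1 against 7897 and 8681 in samples 5 and 6, and 12836 in CPGSE sample 4 against 125415 in sample 6. Among these, 10 of the 12 were over 100 on all OGCsort +/+ arrays and all 12 on both CPGSE arrays. Ngp alone gave 13631 of the 32810. Elane and Prtn3 were lowest in OGCsort +/+ sample 1 and the other neutrophil markers highest there. In CPGSE only Cxcr2 was lower in sample 6 than in sample 4. The summed signal of 9 monocyte and macrophage markers was 20187 in OGCsort +/+ sample 1 against 11686 and 8421, and 17447 in CPGSE sample 4 against 27696. Csf1r alone gave 15649, 8600 and 5854 of the OGCsort +/+ sums. Ccr2 was lowest in OGCsort +/+ sample 1, and the other markers of this sum were highest there. Jchain, the joining chain of secreted antibody, was 13769 against 954 and 1004 in OGCsort +/+, and 13208 and 18325 in CPGSE. The other plasma cell markers did not share 1 order. In OGCsort +/+ Mzb1 and Sdc1 were lowest in sample 1, and Xbp1, Derl3, Prdm1 and Tnfrsf17 were highest there. In CPGSE Mzb1, Sdc1, Xbp1, Derl3 and Prdm1 were higher in sample 4 and Tnfrsf17 in sample 6. For Xbp1 and Sdc1 the order depended on the probe set. Their brighter sets gave 5836, 6317 and 7713 for Xbp1 and 440, 310 and 188 for Sdc1 in OGCsort +/+ samples 1, 5 and 6. In CPGSE both brighter sets were higher in sample 6. The 3' to 5' ratio of the Gapdh controls on chip A, a sign of RNA quality, was 24.8 in OGCsort +/+ sample 1 against 16.8 and 9.14, and in CPGSE it was 14.4 in sample 4 and slightly higher in sample 6. The part of these values in the members' levels was not tested. Without OGCsort +/+ sample 1, 8 of 9 genes passed against -/-, as with it, and 5276 of 40405 probe sets passed. That sample was the lowest of its group for 9 of 9 genes, so this count does not bear on the part of these values.

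**Figure D3:**
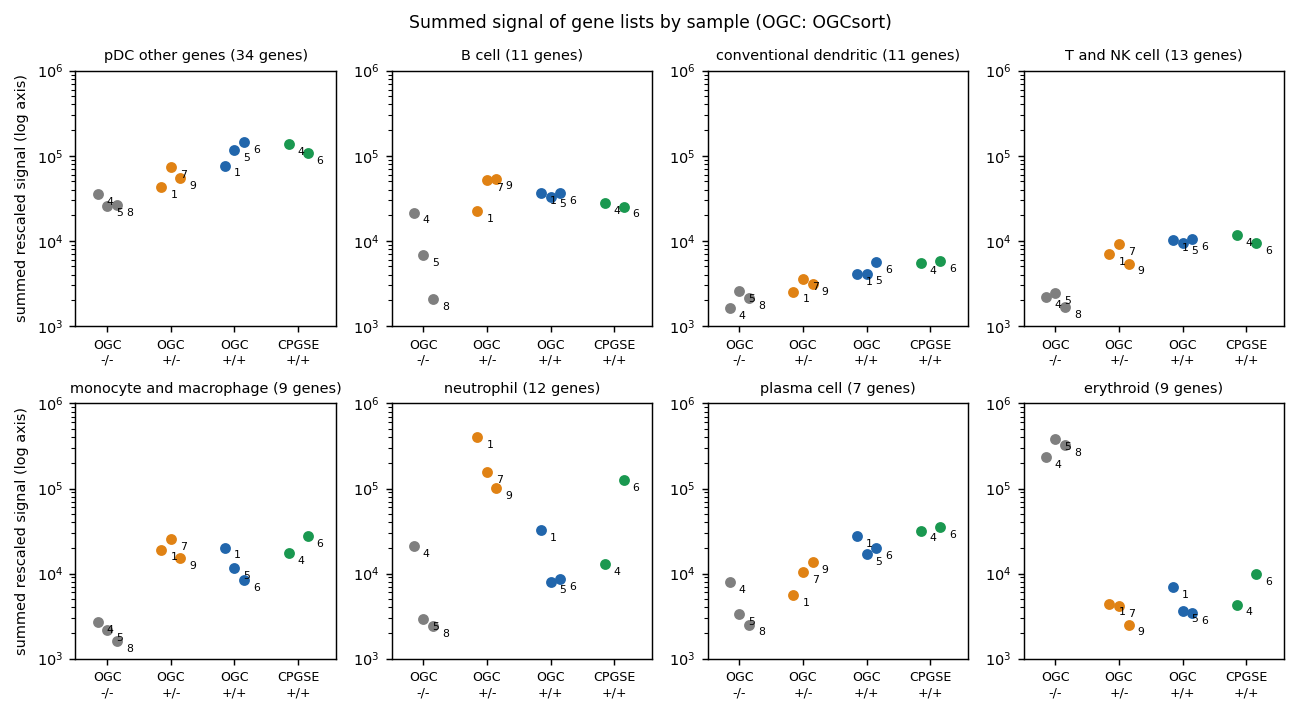
Summed rescaled signal (log axis) of the measured genes of 8 lists in every RNA sample, with the sample number beside each point. The other plasmacytoid dendritic cell genes are lowest in sample 1 of the 3 OGCsort +/+ samples (76698), the neutrophil markers are highest there (32810), and the B cell markers reach 53840 in +/-.

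Other genes known from plasmacytoid dendritic cells were read from a list of 36, of which 34 were measured. Like the other gene lists, it was chosen with earlier results of these data known. The counts and p-values of the lists are therefore no independent evidence beside the members. Between OGCsort +/+ and -/-, 20 of 34 rose and 1 fell, with a median of 1.63 against -0.10 over all genes, of which 19.8% passed in either direction. Irf8, a transcription factor of dendritic cells and monocytes, rose 26.5-fold (log2 4.73, SE 0.38, adjusted p = 2.43e-06), from 185 to 541 in -/- to 5221, 9612 and 11074. Pld4, an endosomal nuclease that limits the sensing of nucleic acids, rose 23.2-fold (adjusted p = 7.73e-05), and Ptprf, a receptor phosphatase, was at least 9.38-fold higher (adjusted p = 1.09e-05). Slc15a4, a lysosomal transporter needed for interferon production by these cells in the mouse, rose 5.61-fold (adjusted p = 9.83e-05). The gene that fell was Snx22, a sorting nexin (log2 -1.42, adjusted p = 0.00597). The number that rose was 16 to 23 when each sample was left out in turn and 16 with the wash run as a block. The summed signal of the list was 25890 to 35504 in -/-, 42568 to 73100 in +/-, 76698 to 144113 in OGCsort +/+ and 106995 and 136309 in CPGSE +/+. As for the members, it was lowest in sample 1 of OGCsort +/+ and sample 6 of CPGSE.

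Between OGCsort +/+ and +/-, 3 of these 34 genes rose and none fell, with a median of 1.10 against -0.03 over all genes, of which 0.141% passed. Klk1, a tissue kallikrein, gave 656, 1997 and 2582 in OGCsort +/+, 3585 and 1365 in CPGSE +/+ and at most 71.6 in +/-. Klk1 was at least 11.7-fold higher in +/+ than in +/- (adjusted p = 0.00912). Ptprf rose 5.68-fold and Smim5, a small membrane protein, 4.50-fold, both at an adjusted p of 0.0444. The Klk1 call was lost without OGCsort +/+ sample 5 (adjusted p = 0.0915), +/+ sample 6 (0.113) or +/- sample 1 (0.0606), and the Ptprf and Smim5 calls under most alternatives. The wash run as a block also removed the Klk1 call (adjusted p = 0.11), and 0 of the 34 then rose. The count was 5 with the sort number as a random block. Irf8 was 3.20-fold above +/- (log2 1.68, SE 0.38) and did not pass (adjusted p = 0.151).

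Between +/- and -/-, 8 of the 34 rose and 2 fell, where 16.8% of all genes passed. Irf8 rose 8.28-fold (adjusted p = 0.000124), Pld4 10.6-fold (adjusted p = 0.000949) and Slc15a4 4.71-fold (adjusted p = 0.000305). Plac8, a gene of many myeloid and lymphoid cells, rose 14.9-fold (adjusted p = 0.00059). Irf7, which drives type I interferon genes, fell (log2 -1.34, SE 0.27, adjusted p = 0.00373). Irf7 did not pass between OGCsort +/+ and -/- (log2 -0.33, adjusted p = 0.45), with 1398 to 2949 in +/+, 977 to 1045 in +/- and 2258 to 3045 in -/-. With the wash run as a block 0 of the 34 rose and 1 fell.

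**Figure D4:**
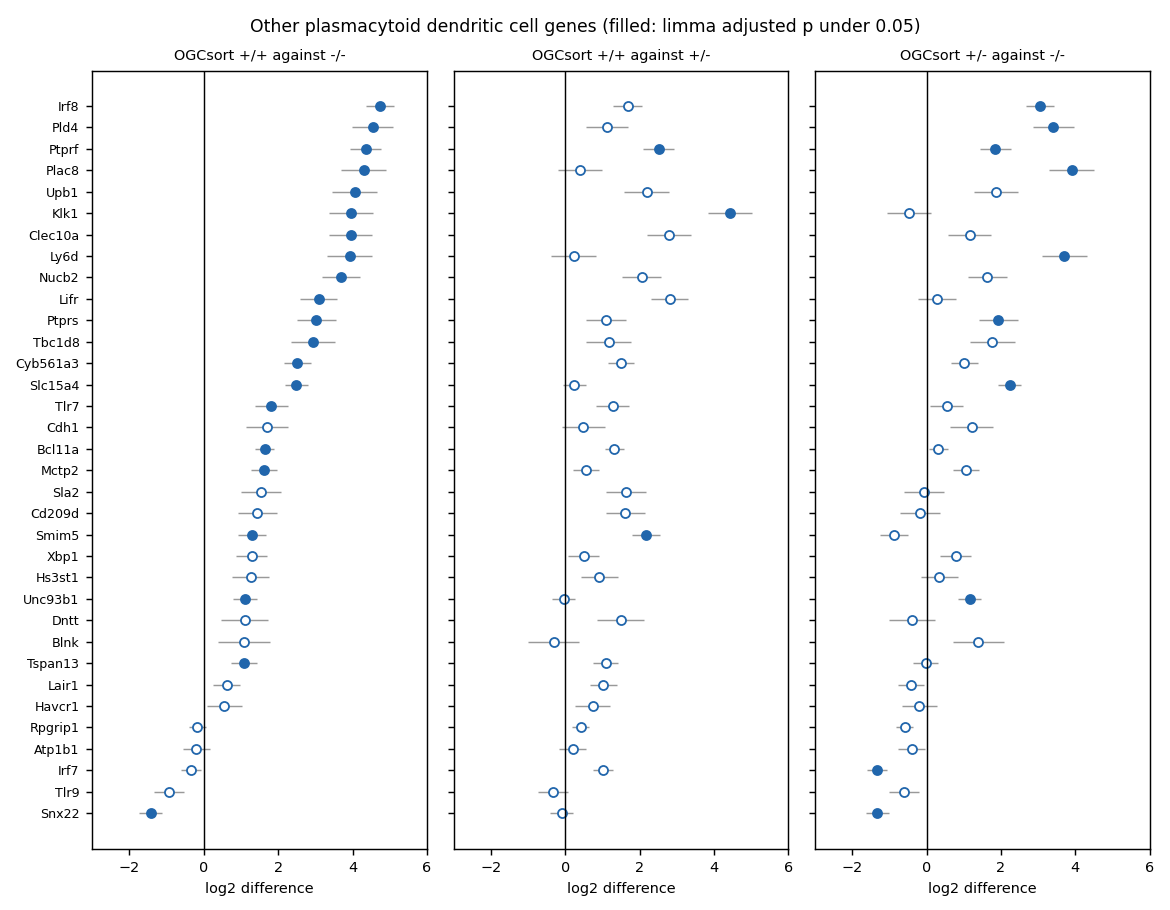
Log2 difference of 34 other plasmacytoid dendritic cell genes in 3 comparisons, first group minus second, ordered by the first; bars are standard errors and filled points have a limma adjusted p under 0.05. Irf8 leads at 4.73 between OGCsort +/+ and -/-, and Klk1 leads at 4.43 between +/+ and +/-.

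The sensors and their helpers were read from 18 measured genes of endosomal nucleic acid sensing, some of which, such as Tlr7, Irf7 and Pld4, also stand on the list above. Between OGCsort +/+ and -/-, 9 rose and none fell, where 19.8% of all genes passed in either direction. Ctsl, a lysosomal protease that processes endosomal receptors, rose 33.0-fold (log2 5.05, adjusted p = 1.70e-05). Tlr7, the receptor of single-stranded RNA, rose 3.53-fold (adjusted p = 0.013), and the call was lost without +/+ sample 5 (adjusted p = 0.0502) or +/+ sample 6 (0.0599). Its signal was 67.5 to 193 in -/-, 374 to 493 in OGCsort +/+ and 632 and 350 in CPGSE +/+. Myd88, the adaptor of these receptors, rose 3.52-fold (adjusted p = 0.00155). Tlr9, the receptor of CpG DNA, had a log2 difference of -0.93 (SE 0.41, adjusted p = 0.142) and a signal of 81.5 to 514 over all samples. Between OGCsort +/+ and +/- none of the 18 passed, where 0.141% of all genes did. Between +/- and -/- 8 rose, and the 1 that fell was Irf7, where 16.8% of all genes passed. The 8 became 0 with the wash run as a block, and 5 without +/- sample 7 or 9.

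The interferon genes themselves were dim. Of 15 type I interferon genes listed, 6 were measured. From -/- to OGCsort +/+ 0 of them rose, where 19.8% of all genes passed in either direction. Ifnb1 lay between 77.3 and 313 in all samples, with means of 233 in -/-, 193 in +/-, 162 in OGCsort +/+ and 103 in CPGSE +/+, and no comparison passed. Ifna5 fell (log2 -1.81, adjusted p = 0.0391), a call lost under 6 of 14 alternatives. The alpha interferon genes are near-identical copies, so their probe sets cannot be taken to measure 1 gene each.

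Transcription factors of the dendritic lineage were read from 26 genes beside Tcf4 and Spib. Of these, 12 rose between OGCsort +/+ and -/-, 13 between +/- and -/-, and 0 between +/+ and +/- by limma, where 19.8%, 16.8% and 0.141% of all genes passed in either direction. The 13 became 0 with the wash run as a block, and 8 without +/- sample 7 or 9. Bcl11a, which acts with E2-2 in these cells, rose 3.12-fold in +/+ against -/- (adjusted p = 0.00063) and was 2.50-fold above +/- without passing (adjusted p = 0.0852). Tcf12, an E protein related to E2-2, rose 2.07-fold in +/+ against -/- (adjusted p = 0.017), and that call was lost without -/- sample 5, -/- sample 8 or +/+ sample 5, with the wash run as a block (0.0523) and without the mean-variance trend (0.0581). Tcf3, the third E protein gene, had a log2 difference of -0.37 (adjusted p = 0.601). Id2, an inhibitor of E proteins, depended on the probe set: the set chosen by rule had a log2 difference of 0.83 (adjusted p = 0.327), and the brighter set rose (adjusted p = 3.12e-06), from 26, 8 and 15 in -/-, all under 100, to 853, 681 and 760. Bcl11a between +/- and -/- differed in the same way, with 0.32 (adjusted p = 0.495) and 2.27 (adjusted p = 0.00273).

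Markers of neighbouring cell types were read in the same groups, and the cell content of the gates was not measured. Of 11 conventional dendritic cell markers 4 rose in OGCsort +/+ against -/-, among them Itgax, an integrin of dendritic cells (log2 1.80, adjusted p = 0.0011), and 0 between +/+ and +/-. With the brightest probe set per gene 2 of the 11 rose, because Cd8a and Naaa no longer passed. Of 13 T and NK cell markers 8 rose against -/-, and 1 against +/-, Cd4 (at least 9.25-fold, adjusted p = 0.000977), which is also found on plasmacytoid dendritic cells. Cd4 was at least 859 in every +/+ sample but at most 62.1 elsewhere. All 9 measured erythroid markers fell against -/-, where their summed signal was 231616 to 378368 and at most 9768 elsewhere. Of 11 B cell markers 4 rose, of 9 monocyte and macrophage markers 6, of 12 neutrophil markers 3, of 7 plasma cell markers 2 and of 10 stem and progenitor markers 5, where 19.8% of all genes passed in either direction. The B cell count was 7 without -/- sample 4, and the monocyte and macrophage count 3 without +/+ sample 1. The neutrophil count was 5 without -/- sample 4 and 1 without -/- sample 5 or 8, and the plasma cell count was 4 with the brightest probe set per gene. Against +/-, where 0.141% of all genes passed in either direction, 1 stem and progenitor marker rose, Hoxa9. It gave 1827, 2063 and 1733 in OGCsort +/+, 1291 and 1100 in CPGSE +/+ and 248 to 336 in +/-. The median of the 10 was 1.42. Their count was 0 with each sample left out in turn and 2 with the sort number as a random block. In the same comparison 1 neutrophil marker passed, Lcn2, which was lower. The median of the 12 was -3.24. That Lcn2 call was lost in each of the 5 fits that left out a sample other than +/+ sample 1. The neutrophil sum was 7897 to 32810 in OGCsort +/+ and 100220 to 404258 in +/-, and its part in the difference of the members was not tested. None of 8 endothelial markers passed, and of 8 osteoblast and stromal markers 1 rose and 1 fell. Ptprc, the gene of CD45, was 149 to 1142 in -/- and 7213 to 14319 in the other samples. Ly6a, the gene of Sca1, had no probe set of its name in the tables.

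Likeness to Siglech was measured as Pearson's r of log2 signals over the 11 samples, which share arrays, scaling and gates, among 2386 genes with a log2 SD of at least 1. It is a description with no test. Of the other members, Ccr9 had 0.97, Cd7 0.95, Pacsin1 0.92, Bst2 0.90, Cox6a2 0.89, Lag3 0.81, Tcf4 0.78 and Spib 0.41. In the rank order of non-members Ccr9 would stand at 8 and Spib at 913. The 10 non-members most like Siglech were Jade2, Sh3bgr, Tex2, Cxcr3, Dnase1l3, Lifr, Cd4, Gimap4, Clec10a and Cyb561a3, with r from 0.99 to 0.96. By Spearman's rho 3 of these 10 would be named, and by r over the 9 OGCsort samples 8 would. Cxcr3, a chemokine receptor, gave 1103, 1748 and 2970 in OGCsort +/+ and 178 to 717 in the Sca1 negative samples. Dnase1l3, a secreted DNase, gave 239, 296 and 376 against at most 44.7. Sh3bgr gave 208, 554 and 500 against at most 47.7. In each of these the +/+ samples lay above all others, and sample 1 was the lowest of its group.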

How the data were processed

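RNA of 11 sorted samples in 4 groups was measured on 22 arrays. Chip A and chip B arrays were paired by their labels. Over 100 probe sets on both chips, the chips of a sample correlated at r = 0.918 to 0.982. Chip A of OGCsort -/- sample 5 had 0.918 with its own chip B and 0.961 with that of -/- sample 8. For OGCsort +/+ sample 5 it was 0.962, and 0.966 with that of +/+ sample 1. Every other sample was closest to its own. The bearing on Siglech, on chip B, beside genes of chip A was not tested. The deposited values are MAS5 intensities per probe set, per the submitters' processing notes, and the deposited arrays share a common trimmed mean. Here each array was rescaled to a mean of 500 without the lowest and highest 2%, and log2(signal + 32) was used, so a log2 difference understates the change of dim genes. A probe set was kept if its signal passed 100 on 2 or more arrays of its chip. Groups were compared with limma 3.58.1 (R 4.3.3) per chip, with Benjamini-Hochberg adjustment over both chips and a threshold of 0.05. Comparisons within OGCsort were fitted on its 9 samples, and that with CPGSE on all 11. An "at least" fold sets the mean log2(signal + 32) of the higher group against that of a signal of 100. It is given where all arrays of the other group were under 100. A gene was read from 1 representative probe set with a single name, from chip A where possible. The members and the lists of other genes were chosen with earlier results of these data known. Named genes are all members, the 10 genes most like Siglech, and from each list the genes with the smallest adjusted p or known to act with a member. No detection calls were used, and the number of arrays limits the precision. Gene names came from the platform annotation and sequences from RefSeq. Tested on simulated data, the fit recovered 0% of 2-fold, 46% of 4-fold and 86% of 16-fold changes between OGCsort +/+ and -/-. It recovered 38% of 4-fold changes between +/+ and +/- and 26% between +/- and -/-. Only 50 of 40405 probe sets were changed at each fold size. In the data 6789 passed between +/+ and -/- and 5569 between +/- and -/-. The adjustment was therefore stricter in the simulation, and its shares do not give the power of those comparisons. Wash runs were read from the run records: chip A -/- samples shared a run with OGCsort +/+ samples 1 and 5, and chip A +/- samples with +/+ sample 6. CPGSE was run alone. On chip B all OGCsort samples but +/- sample 1 shared a run, and the block there was the run together with the wash station.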

Additional observations from a re-analysis of the deposited data

How the results depend on the processing

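Over all probe sets, 6789 passed between OGCsort +/+ and -/-, 3965 with the wash run as a block and 4665 to 7225 when each sample was left out in turn. Between +/- and -/- 5569 passed, 506 with the wash run as a block and 3772 to 6242 with samples left out. Between +/+ and +/- 44 passed: 20 with a pseudocount of 16, 70 with 64, 23 with no filter, 28 with a signal over 200 on at least 3 arrays, 19 without a mean-variance trend, 6 with the wash run as a block, 75 with all 11 samples in the fit and 9 to 36 with samples left out. Between the 2 sets of +/+ samples it was 0 to 3, with 3 without OGCsort +/+ sample 1. Of the 9 genes, 8 passed between +/+ and -/- (7 to 8 with samples left out). Between +/+ and +/- 2 passed, 1 without the trend, 0 with the wash run as a block and 0 to 3 with samples left out. Between +/- and -/- 2 passed, 0 with the wash run as a block and 2 to 4 with samples left out. The cause was not tested.

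No paired analysis was possible because the OGCsort groups compared share fewer than 2 sort numbers. With the sort number as a random replicate block (consensus correlation 0.384 on chip A and 0.156 on chip B), 133 probe sets and 5 of the 9 genes passed between +/+ and +/-.

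Some differences turned sign. Spib between +/+ and +/- was 0.14 with the wash run as a block and -0.87 to 0.04 with samples left out. Between +/- and -/-, the wash run as a block gave -0.68 for Bst2, against 1.51 without it, and -0.77 for Siglech. With samples left out, Siglech was -0.04 to 0.36, Pacsin1 -0.02 to 0.18 and Lag3 -0.30 to 0.15. Over 405 alternative values of single genes, 369 kept direction and side of the threshold, 14 fell below it, 13 passed it and 9 turned sign. Of the 10 genes most like Siglech, Spearman's rho shared 3. With the brightest probe set per gene, chosen after seeing the data, 24 rather than 20 of the 34 other genes rose between +/+ and -/-. A signal under 100 was not resolved from background.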
